A study of Mus musculus with 4 samples.

Results

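The transcripts of 10 enzymes of glycolysis were followed between isolated mitochondria and the remaining tissue of mouse skeletal muscle. The members were chosen by gene symbol (Gpi1, Pfkm, Aldoa, Tpi1, Gapdh, Pgk1, Pgam2, Eno3, Pkm and Ldha). No cut on their values was used, but earlier results of these data were known. They took up 11 of the 16472 genes in the table, because the symbol Aldoa stood on 2 identifiers.

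The libraries came from skeletal muscle of wild-type (WT) mice, with no other allele or agent named. The study asked which long non-coding RNAs lie in mitochondria of muscle, and sequenced RNA of isolated mitochondria (2 libraries) and of a tissue fraction (2 libraries). The second group is labelled as tissue minus mitochondria but titled total tissue, and the supplementary legend names lysates of total muscle, so that a comparison with whole or with depleted tissue cannot be told apart; it is called remaining tissue here. Age, sex, the muscle taken and whether libraries came from separate animals are not stated in the sources used here, and the p-values below measure only the spread between libraries, which may be technical. Fragmentation was adjusted to 1 min for mitochondrial RNA, so fragmentation and group cannot be told apart. The methods describe digitonin and RNase A treatment of isolated heart mitochondria before RNA isolation, and whether muscle mitochondria were treated likewise was not stated.

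Glycolysis is a chain of cytosolic enzymes that splits glucose into pyruvate and yields ATP without oxygen. Its enzymes are encoded in the nucleus and translated on cytosolic ribosomes, and fast-twitch myofibres hold them in very large amounts. Several steps are run by an isozyme that adult muscle favours (Pfkm, Aldoa, Pgam2, Eno3, Ldha), with related genes taking that step in liver, brain or other tissues.

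The values are normalized counts, that is reads per gene which the authors divided by a size factor per library and rounded. In isolated mitochondria 1 read was worth 9.05 normalized counts in replicate 1 and 5.06 in replicate 2, and in remaining tissue 1 normalized count stood for an estimated 7.05 reads. That factor was taken to be the same in both libraries of remaining tissue, so their estimated depths differ only as their normalized totals do. The libraries of isolated mitochondria were 42758846 and 35310363 reads deep, and those of remaining tissue 15699723 and 15297734 by estimate. Counting only nuclear genes that are no copies of mitochondrial sequence, the former held 100924 and 181152 reads and the latter 11986370 and 11965495 by estimate. Fast myofibre markers were abundant in both groups, with sums over 12 genes of 314587 and 325483 normalized counts in remaining tissue and 64103 and 60654 in isolated mitochondria.

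All 10 members were lower in isolated mitochondria, with adjusted p-values from 0.00849 to 0.0494 (limma on log2(normalized count + 1), over 6916 genes with a mean of at least 20). The same call fell on 9.30% of the genes tested, and 7.32% were higher. The mean in remaining tissue was 1.86 to 4.61 times that in isolated mitochondria, least for Pgam2 and most for Pfkm. The median log2 fold change of the members was -1.60, against -0.44 over the genes tested. In none of the 10 did the groups overlap, as was so in this direction for 43.7% of the genes tested (25.5% in the other). Isolated mitochondria are a subcellular fraction. The mix of cells that gave its RNA and the part of each cell's cytosolic RNA present in it cannot be told apart.

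**Figure D1:**
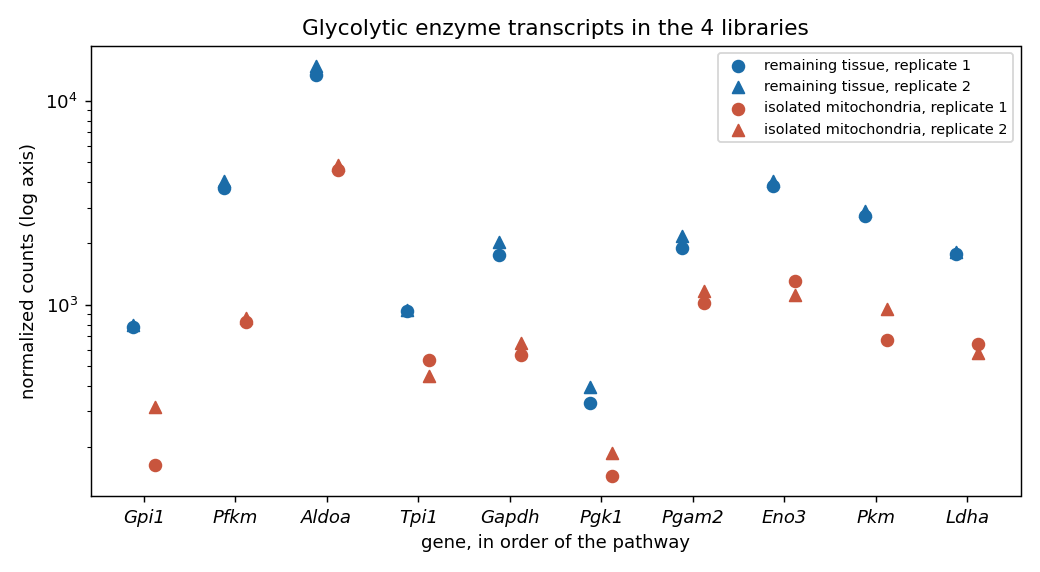
Normalized counts (log axis) of the 10 glycolytic members, in order of the pathway, in the 2 libraries of remaining tissue (blue) and the 2 of isolated mitochondria (red); circles are replicate 1 and triangles replicate 2. For every member, both red points lie under both blue points, and the red pair of Gpi1 (163 and 314) is the most spread.

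The early steps consume ATP. Gpi1 (ENSMUSG00000036427, chr7:34201330-34230336, minus strand, GRCm38), the isomerase that turns glucose 6-phosphate into fructose 6-phosphate, had 782 and 797 normalized counts in remaining tissue and 163 and 314 in isolated mitochondria. The latter were 18 and 62 reads, and the replicates of isolated mitochondria differed 1.93-fold, the widest gap among the members. Its log2 fold change was -1.80 (SE 0.37, limma adjusted p = 0.0469). Pfkm (ENSMUSG00000033065, chr15:98092589-98132451, plus strand), the muscle subunit of phosphofructokinase and a main control point of the pathway, had 3721 and 4053 normalized counts in remaining tissue and 823 and 865 in isolated mitochondria, from 91 and 171 reads. Both replicates of isolated mitochondria lay close together and far below the tissue. The log2 fold change of Pfkm was -2.20 (SE 0.16, limma adjusted p = 0.00849).

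Aldolase and triose phosphate isomerase split the hexose and interconvert the products. Aldoa (ENSMUSG00000030695, chr7:126795234-126800751, minus strand), the muscle aldolase, was the highest member in every library, at 13326 and 14764 normalized counts in remaining tissue and 4561 and 4867 in isolated mitochondria (504 and 962 reads). These values gave a log2 fold change of -1.57 (SE 0.17, limma adjusted p = 0.0172). The other row named Aldoa (ENSMUSG00000114515, chr7:126800790-126809108) begins 39 nt beyond the first, was listed at 2 and 1 normalized counts in remaining tissue and at 0 in both libraries of isolated mitochondria, and was too low to be tested. Tpi1 (ENSMUSG00000023456, chr6:124810586-124814296, minus strand), the isomerase, had 937 and 941 normalized counts in remaining tissue and 534 and 445 in isolated mitochondria. Its log2 fold change was -0.94 (SE 0.18, limma adjusted p = 0.0427), among the smallest of the set, with groups that stayed apart.

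The later steps harvest NADH and ATP. Gapdh (ENSMUSG00000057666, chr6:125161715-125166467, minus strand), the dehydrogenase that makes NADH and a common reference gene, had 1757 and 2027 normalized counts in remaining tissue and 570 and 653 in isolated mitochondria, from 63 and 129 reads. Its log2 fold change was -1.63 (SE 0.18, limma adjusted p = 0.0181). Pgk1 (ENSMUSG00000062070, chrX:106187100-106203699, plus strand), which makes the first ATP of the payoff steps, was the lowest member, at 330 and 397 normalized counts in remaining tissue and 145 and 187 in isolated mitochondria. With 16 and 37 reads behind the latter, its log2 fold change was -1.13 (SE 0.24, limma adjusted p = 0.0494), at the edge of the threshold. Pgam2 (ENSMUSG00000020475, chr11:5801640-5803733, minus strand), the muscle phosphoglycerate mutase, had 1903 and 2170 normalized counts in remaining tissue and 1023 and 1169 in isolated mitochondria (113 and 231 reads). That made the smallest change among the members, a log2 fold change of -0.89 (SE 0.18, limma adjusted p = 0.0456).

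Eno3 (ENSMUSG00000060600, chr11:70657202-70662513, plus strand), the muscle enolase, had 3829 and 4038 normalized counts in remaining tissue and 1303 and 1118 in isolated mitochondria, a log2 fold change of -1.70 (SE 0.17, limma adjusted p = 0.0148). Pkm (ENSMUSG00000032294, chr9:59656368-59679375, plus strand), the pyruvate kinase that yields the last ATP, had 2728 and 2885 normalized counts in remaining tissue and 670 and 951 in isolated mitochondria. The replicates of isolated mitochondria differed 1.42-fold for Pkm, and its log2 fold change was -1.81 (SE 0.23, limma adjusted p = 0.0223). Ldha (ENSMUSG00000063229, chr7:46841475-46855627, plus strand), the lactate dehydrogenase subunit that regenerates NAD+ by making lactate, had 1773 and 1814 normalized counts in remaining tissue and 642 and 582 in isolated mitochondria. Its groups lay well apart, with a log2 fold change of -1.55 (SE 0.16, limma adjusted p = 0.0157).

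**Figure D2:**
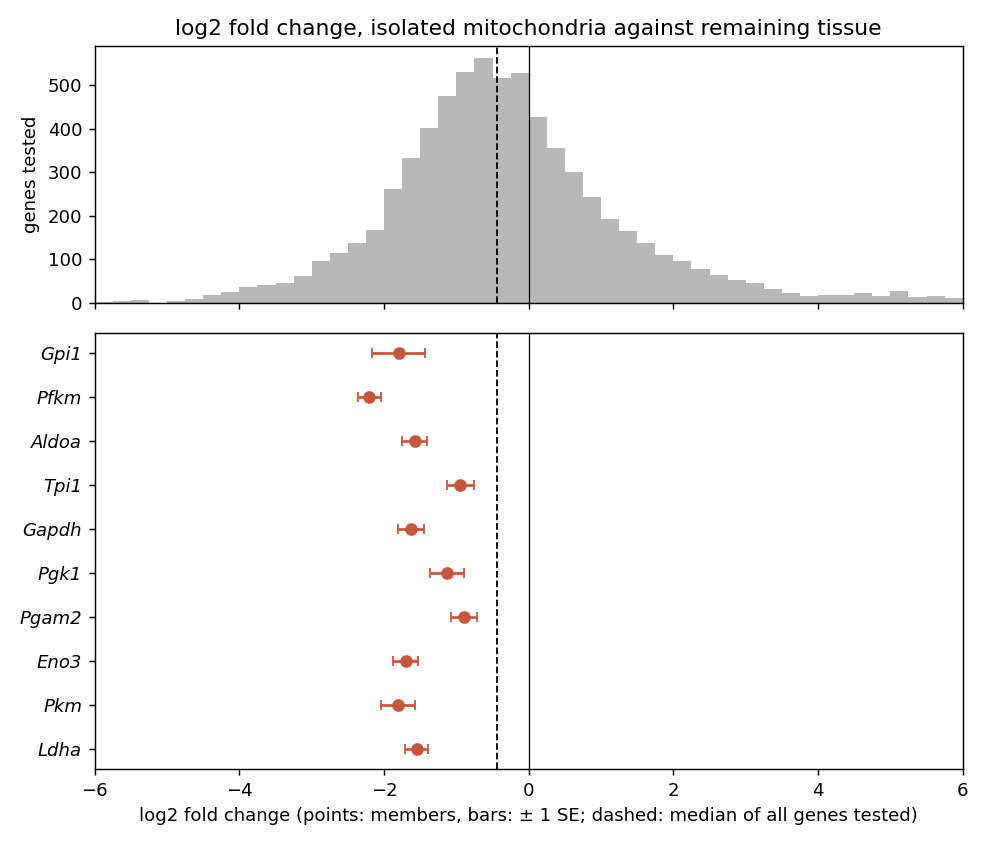
Above, the log2 fold changes (isolated mitochondria against remaining tissue) of all genes tested, in narrow bins, with genes beyond the ends of the axis not drawn; below, those of the 10 members (points, bars ± 1 SE). The members span -2.20 for Pfkm to -0.89 for Pgam2, all to the left of the dashed median of -0.44.

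The calls depended on the scaling. When libraries were scaled to nuclear genes without copies, which moved the median gene tested from -0.44 to 0.45, only Eno3 (log2 fold change -0.81) and Pfkm (-1.31) stayed past the threshold, Pgam2 stood at 0.0019 and Tpi1 at -0.05, and the genes tested split into 191 lower and 1177 higher in place of 643 and 506. Without remaining tissue replicate 2, in a fit whose spread comes from isolated mitochondria alone, 4 members were called (Gpi1, Pfkm, Eno3 and Pkm).

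A share of reads needs no size factor but depends on its denominator, here the same genes as in that scaling. Of the reads on nuclear genes without copies, the 10 members took 1.83% (95% Wilson interval 1.820 to 1.835) and 1.996% (1.988 to 2.004) in remaining tissue, from estimated reads. In isolated mitochondria they took 1.14% (1.079 to 1.210; 1153 reads) and 1.22% (1.167 to 1.268; 2204 reads). The groups did not overlap, with means of 1.91% ± 0.119 and 1.18% ± 0.0525 (SD, n = 2 each), a ratio of 1.62. Against genes outside the mitochondrial genome the ratio was 23.1, and against all genes 331. No test was run, since 2 libraries against 2 cannot give an exact two-sided permutation p under 0.333, and the intervals cover counting error only.

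Within their own sum the members kept a partly fixed order. Aldoa made up 42.9% and 43.6% of the summed normalized counts of the 10 genes in remaining tissue and 43.7% and 43.6% in isolated mitochondria, so that the leading transcript held its place while the sum was 31086 and 33886 in the former and 10434 and 11151 in the latter. Gapdh likewise took 5.65% and 5.98% in remaining tissue and 5.46% and 5.86% in isolated mitochondria, with groups that overlapped. Pfkm and Pgam2 did not keep their places. The log2 ratio of Pfkm to Pgam2 was 0.97 and 0.90 in remaining tissue and -0.31 and -0.43 in isolated mitochondria, so that the more abundant of the pair changed. The log2 ratio of Pkm to Tpi1 was 1.54 and 1.62 in remaining tissue and 0.33 and 1.10 in isolated mitochondria, again without overlap. Such ratios within a library do not depend on its size factor.

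**Figure D3:**
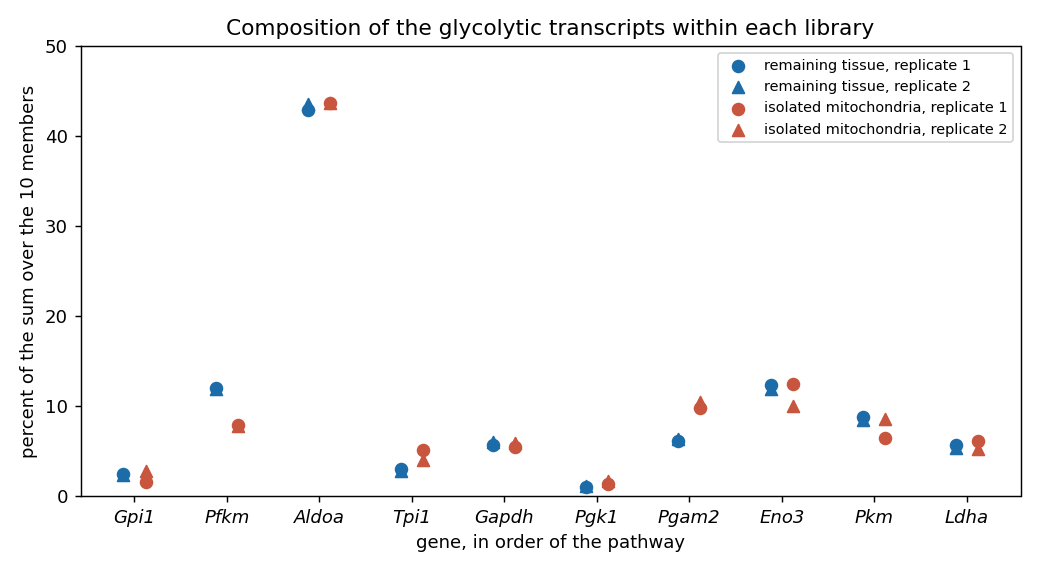
Each member's percent of the summed normalized counts of the 10 members, in the 2 libraries of remaining tissue (blue) and of isolated mitochondria (red); circles are replicate 1 and triangles replicate 2. Aldoa lies between 42.9% and 43.7% in all libraries, whereas Pfkm lies lower (7.89% and 7.76% against 11.97% and 11.96%) and Pgam2 higher (9.80% and 10.5% against 6.12% and 6.40%) in isolated mitochondria.

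Fold change and transcript length moved together. Pgam2, the member that fell least, was the shortest at 840 nt (longest coding transcript) and stood at -0.89 on the log2 scale, and Pfkm and Gpi1, at 2879 and 2884 nt, at -2.20 and -1.80. Over the 10 members, log2 fold change and log2 length had a Pearson r of -0.74 and a Spearman rho of -0.61. Over the 12 fast myofibre genes, examined after these values were seen, rho was -0.94. The shortest was Tnnc2 (700 nt, -0.60), and the longest were Myh4 (6016 nt, -3.34), Myh1 (6081 nt, -2.48) and Myh2 (6083 nt, -2.92). The rho for length was -0.37 over 10 glycogen enzymes and -0.30 over 17 enzymes of the tricarboxylic acid cycle. Over 6861 nuclear genes tested it was -0.18, against -0.55 for level in remaining tissue (6862 genes); over the members the latter was -0.37. These are descriptions across genes that share the same 4 libraries and are not independent. The level in remaining tissue is itself part of the fold change, so its rho is negative in part by construction. Genes low in remaining tissue also passed the filter only where isolated mitochondria were high. Fragmentation differed with the group, and its part in the relation to length was not tested.

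**Figure D4:**
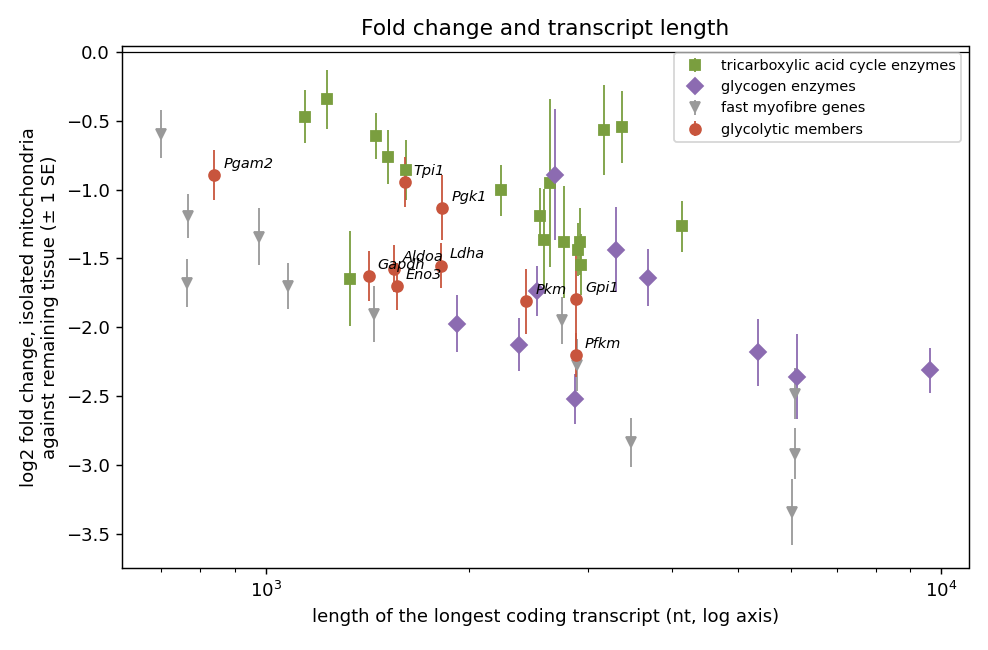
log2 fold change (isolated mitochondria against remaining tissue, bars ± 1 SE) against the length of the longest coding transcript (nt, log axis) for the members (red circles), fast myofibre genes (grey triangles), glycogen enzymes (purple diamonds) and tricarboxylic acid cycle enzymes (green squares). Pgam2 (840 nt) lies highest among the members and Pfkm (2879 nt) lowest. The fast myofibre genes run from -0.60 at 700 nt to -3.34 at 6016 nt, -2.48 at 6081 nt and -2.92 at 6083 nt.

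Levels of different genes were compared per length. In remaining tissue Aldoa led at a mean of 9067 normalized counts per kb, followed by Eno3 (2515), Pgam2 (2424), Pfkm (1350), Gapdh (1332), Pkm (1154), Ldha (988), Tpi1 (584), Gpi1 (274) and Pgk1 (199). In this order the replicates of Eno3 and Pgam2 overlapped, as did those of Pfkm and Gapdh, whereas the other neighbours were apart in both libraries. In isolated mitochondria the order put Pgam2 (1305 per kb) above Eno3 (774), with Aldoa still first (3043). Gapdh and Pgk1 depended on how length was counted, as the copies of their sequence show.

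Gapdh and Pgk1 share most of their transcript with other genes. Of the 1346 windows of 75 nt (the read length) in the Gapdh transcript, 1081 (80.3%) also lay, without mismatch, in transcripts of 121 other genes. For Pgk1 this held for 1182 of 1751 windows (67.5%) and 4 genes, for Pkm for 19.6% and for Gpi1 for 14.8%; Pfkm, Pgam2 and Eno3 shared none. Reads over several genes were also left out, and 15.3% of the exonic bases of Pkm, 11.5% of Gpi1 and 10.7% of Pfkm overlapped exons of another gene, some on the opposite strand. These overlaps are partly in the window counts already, since 140 shared windows of Gpi1 and 95 of Pkm lay in an overlapping gene. The authors excluded reads that align to several places, so a read wholly inside a window shared with a gene elsewhere would be counted for no gene. Counted per kb of unshared windows instead of per kb of transcript, the mean of Gapdh in remaining tissue was 7140 normalized counts, next to Aldoa (9666) and above Pgam2 (2659) and Eno3 (2640), and that of Pgk1 was 639.

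Reads were nevertheless deposited for the copies. Of the 121 genes 116 were in the table, 108 of them processed pseudogenes, which are intronless copies of an mRNA in the genome, and all 116 were above 0 in both libraries of remaining tissue. Together they held 3754 and 4231 normalized counts in remaining tissue and 1188 and 1240 in isolated mitochondria, between 65.5% and 68.1% of the sum with Gapdh in every library. The Gapdh row was thus the smaller part of its family in all 4 libraries. Gm12033, the most abundant of these copies with 853 of its 928 windows in Gapdh, had 179 and 184 normalized counts in remaining tissue and 45 and 46 in isolated mitochondria. Gm10359 (139 and 153, then 36 and 10) and Gm12671 (140 and 151, then 27 and 71) had all of their 928 windows in Gapdh, although the methods exclude reads with several places; reads that run past the annotated copy were not examined. Likewise all 1181 windows of Pgk1-rs7 lay in Pgk1, and it had 39 and 48 normalized counts in remaining tissue and 27 and 20 in isolated mitochondria. Not all genes sharing windows with Gapdh are copies of it. Some shared only 1 window, and Peli2, a protein-coding gene, shared 21 but none in its longest coding transcript. Of the 39 such genes that could be tested, 9 were lower and 0 higher by limma, against 9.30% and 7.32% of all genes tested. Summed with the genes sharing its windows, Gapdh had a log2 fold change of -1.69 (SE 0.17, limma adjusted p = 0.0147), close to the -1.63 of its own row. Pgk1, summed likewise, had one of -1.12 (adjusted p = 0.0378 by limma) beside -1.13.

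The study's own primers for Gapdh in RT-qPCR, where Gapdh served as a reference, lie in the shared stretch. They are shown because their sites recur in the copies, from the study's list of oligonucleotides.
Gapdh forward: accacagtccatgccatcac
Gapdh reverse: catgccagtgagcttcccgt
The forward primer matched nt 760 to 779 and the reverse primer nt 908 to 927 of the 1420-nt transcript, an amplicon of 168 nt. Both sites were present in transcripts of 31 other genes, 29 of them in the table, and at least 1 site in 119. This is a count of matching letters and not a measurement of amplification.

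The isozymes of the same steps were less alike. The closest 75-nt coding windows of each pair differed at 8 to 11 positions, while the aligner allowed mismatches in up to 10% of a read. The closest windows of Pgam2 and Pgam1 (the form of most other tissues) are shown as an example of how far such a pair differs over a full-length read; trimmed, shorter reads were also kept and can differ less. Capitals mark the bases that differ, and both sequences come from the GENCODE transcripts on GRCm38.
Pgam2: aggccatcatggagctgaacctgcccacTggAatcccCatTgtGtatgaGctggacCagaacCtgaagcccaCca
Pgam1: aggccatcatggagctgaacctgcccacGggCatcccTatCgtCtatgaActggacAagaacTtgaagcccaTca
The pair differed at 9 of the 75 positions.

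The muscle isozyme dominated in both groups at the steps of phosphofructokinase, phosphoglycerate mutase, enolase and lactate dehydrogenase, and its share was lower in both libraries of isolated mitochondria in 4 of these 4 steps. Over 6862 nuclear genes tested, log2 fold change also went with level in remaining tissue (Spearman rho -0.55, a description across genes that share the 4 libraries), and the members are far more abundant than their isozymes. That level is itself part of the fold change, so this rho is negative in part by construction. Its part in the isozyme shares was not tested. Per length, Pfkm made up 99.6% and 99.5% of phosphofructokinase transcripts in remaining tissue and 97.0% and 94.1% in isolated mitochondria. Pfkp, the platelet form, went from 13 and 15 normalized counts to 27 and 61 (log2 fold change 1.48, limma adjusted p = 0.143), and Pfkl, the liver form, stood at 8 and 12 and then at 9 and 15; in isolated mitochondria these were 3 and 12 reads of Pfkp and 1 and 3 of Pfkl. Eno3 made up 98.4% and 98.2% of enolase transcripts and then 90.7% and 93.7%. Eno1, the widely expressed enolase, had 61 and 73 normalized counts in remaining tissue and 163 and 81 in isolated mitochondria (log2 fold change 0.78, limma adjusted p = 0.252), and its near copy Eno1b had 19 and 18 and then 9 and 15. For Ldha the share was 88.6% and 90.4% and then 88.0% and 79.8%, with replicate 1 of isolated mitochondria just under the tissue. Ldhb, the heart-type subunit, had 164 and 139 normalized counts and then 63 and 106, from 7 and 21 reads (log2 fold change -0.88, limma adjusted p = 0.150).

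Phosphoglycerate mutase completed the set. Pgam2 held 99.83% and 99.80% of its step in remaining tissue and 98.8% and 99.4% in isolated mitochondria, where Pgam1 rested on few reads (27 and 15 normalized counts, against 7 and 9). The isozyme shares, which no scaling of a library changes, were not tested.

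**Figure D5:**
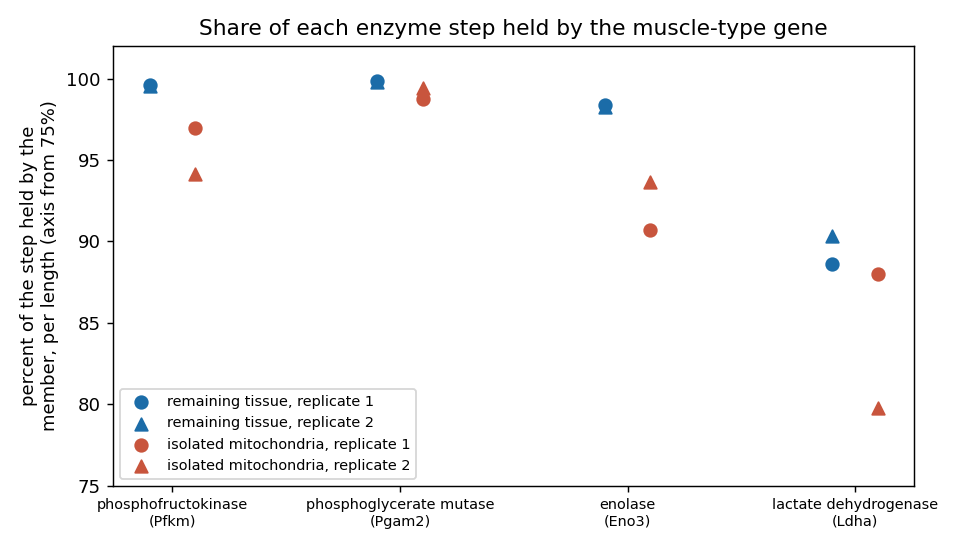
Percent of each enzyme step, per transcript length, held by the muscle-type member in remaining tissue (blue) and isolated mitochondria (red); circles are replicate 1 and triangles replicate 2, and the axis starts at 75%. In all 4 steps drawn both red points lie under both blue points, with the widest spread for Ldha (88.0% and 79.8%).

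Markers of other cell types moved with the groups. Plasma protein genes of liver, a list of 8 chosen after their values were seen, summed to 375 and 122 normalized counts in remaining tissue and 15890 and 3105 in isolated mitochondria; 8 of 8 had a positive log2 fold change and 2 were called higher. Alb, the gene of serum albumin, was 4.29 times higher in replicate 1 of isolated mitochondria than in replicate 2. Of 6 fibroblast markers 6 were higher, with sums of 1569 and 1675 normalized counts in remaining tissue and 10153 and 18571 in isolated mitochondria, and 3 of 4 macrophage markers tested were higher (sums of the 6 listed 92 and 110, then 551 and 728). Endothelial markers, by contrast, had negative log2 fold changes in 5 of 5 tested (median -2.59, 1 called lower). Sums of the 6 listed were 491 and 485, then 90 and 126. Smooth muscle markers were negative in 5 of 5 (median -1.10, 1 called lower, groups apart in 3) and erythroid markers in 2 of 2 (none called by limma). The median over all genes tested was itself negative, at -0.44. The gene called from the smooth muscle list, Des, is not particular to smooth muscle. It held 4563 and 4300 of that list's 5169 and 4824 normalized counts in remaining tissue, and the list's median of -1.10 is its value. Acta2 (-0.19) and Tagln (-0.25) lay above the median of all genes tested, and Myh11 (-1.52) and Rgs5 (-2.09) below it. The groups overlapped for Acta2 and Tagln. Tagln, at 30 and 29 and then 109 and 5 normalized counts, had the higher mean in isolated mitochondria despite its negative sign. Of the fast myofibre markers 11 of 12 were lower (median log2 fold change -1.93). Slow myofibre markers had negative log2 fold changes in 7 of 7 (median -1.85), but none was called by limma (sums 2704 and 4547, then 741 and 1704). The part of these cell types in the lower levels of the members and in the isozyme shares was not tested.

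Among 31 other genes of glucose uptake, glycolysis and lactate transport, 24 were in the table and 15 were tested, of which 3 were lower and 2 higher, with a median log2 fold change of -1.04. Slc2a4, the insulin-responsive glucose transporter, fell from 456 and 428 normalized counts in remaining tissue to 109 and 147 in isolated mitochondria (log2 fold change -1.80, limma adjusted p = 0.0225). Hk2, the muscle hexokinase, fell from 750 and 741 to 235 and 212 (log2 fold change -1.74, limma adjusted p = 0.0147). Both lay within the range of the members. Pfkfb3, which makes the activator of phosphofructokinase, fell from 707 and 921 to 27 and 126, the latter from only 3 and 25 reads. Its log2 fold change was -3.76 (SE 0.79, limma adjusted p = 0.0495). Hk1, the hexokinase of brain and most other tissues, was higher instead, at 17 and 18 normalized counts in remaining tissue and 63 and 56 in isolated mitochondria. The latter were 7 and 11 reads (log2 fold change 1.71, limma adjusted p = 0.0388). With the replicate number as a block Hk1 was not called (limma adjusted p = 0.0555), while edgeR (adjusted p = 0.0217) and DESeq2 (adjusted p = 1.83e-05) called it higher. Under both scalings to totals Hk1 was called lower, like most genes tested, though it stayed above the median gene. It stood at -5.19 against a median of -7.34 with libraries scaled to their whole total. With scaling to genes outside the mitochondrial genome it stood at -1.30 against -3.45. The counts in this list moved when a library was left out, in fits where the lone library of its group is assumed to vary like the pair of the other. Without isolated mitochondria replicate 1 or 2, 7 and 9 genes were lower, and without remaining tissue replicate 1, 1 was lower (Pfkfb3) and 1 higher; without remaining tissue replicate 2, 1 was higher.

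Other routes of energy metabolism were compared to place the members. Glycogen enzymes, which feed glycolysis in muscle, had 8 of 10 tested genes lower, none higher, and a median log2 fold change of -2.05, led in level by Pygm, the muscle phosphorylase (8914 and 9347 normalized counts, then 1448 and 1745; log2 fold change -2.52). Of the 6 creatine and adenylate kinases tested, 3 were lower and 1 higher (median -0.55), with Ckm, the muscle creatine kinase, at -1.95. The enzymes of the tricarboxylic acid cycle, which work inside mitochondria but are encoded in the nucleus, had 7 of 17 lower and none higher (median -1.004). Of the 7 shuttle genes, which pass the electrons of glycolytic NADH to mitochondria, 2 were lower, Gpd1 (-1.79) and Gpd2 (-1.72), and none was higher by limma. Of 3 gluconeogenic genes tested none was called by limma, and Pck1 stood at 8 and 39 normalized counts in remaining tissue and 271 and 101 in isolated mitochondria. The median of the members, -1.60, thus lay between those of the glycogen enzymes and of the cycle; differences between these lists were not tested.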

How the data were processed

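RNA of skeletal muscle of WT mice was sequenced in 4 libraries, grouped by their labels. The authors made libraries from 10 ng of total RNA with a stranded kit, trimmed reads (Trimmomatic 0.39), aligned them to GRCm38 (STAR), counted reads over exons (featureCounts), left out reads overlapping several genes or aligning to several places, and normalized with DESeq2. The submitters' processing notes give STAR 2.7.10a, featureCounts 2.0.2 and DESeq2 1.30.1; the methods name other versions of these 3 tools. No source states the strand setting. What was deposited is a signal: gene counts that the authors divided by size factors and rounded.

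Whole reads were recovered in isolated mitochondria (99.8% of 10508 and 99.9% of 11660 low values whole within 0.6 normalized counts) and estimated in remaining tissue, with the same factor for both libraries. Genes with a mean of at least 20 entered limma 3.58.1 (R 4.3.3; lmFit, then eBayes with a trend) as log2(normalized count + 1), two-sided, with Benjamini-Hochberg adjustment and a threshold of 0.05. For low genes, the 1 added before the log shrinks fold changes on this scale. A library of isolated mitochondria near 0 can instead enlarge them. Annotation was GENCODE M21 (16457 of 16472 identifiers matched, 16305 with the same coordinates). The 17 nuclear copies of mitochondrial sequence were found with BLAST 2.17.0. The test was checked on simulated data. edgeR 4.0.16 and DESeq2 1.42.0 on recovered and estimated reads were alternatives. Named genes were the 10 members, isozymes of their steps in the table, the most abundant hexokinases, other pathway genes past the threshold, at most the 3 most abundant genes of each comparison list, and the most abundant copies. Gpd2, Gm10359, Gm12671, Peli2, Alb, Tnnc2, Myh4, Myh1, Myh2, Des, Acta2, Tagln, Myh11 and Rgs5 were chosen after their values were seen. Some genes that this rule names are not reported here, though counts over lists include them. Members and lists were chosen with earlier results of these data known.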

Additional observations from a re-analysis of the deposited data

How the results depend on the processing

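The count of members lower (10) was 8 to 10 under the alternatives not listed here. It was 6 with a mean of at least 5, 6 with upper quartile scaling, 5 with eBayes without trend, 2 when scaled to nuclear genes without copies, and 4 to 10 when leaving out a library (4 without remaining tissue replicate 2). It was 10 by edgeR and by DESeq2 and 7 by edgeR with TMM. No member was called higher under any alternative. Pgam2 reversed to 0.0019 (adjusted p = 0.996, limma) when scaled to nuclear genes without copies, the only reversal among the members. Eno3 and Pfkm stayed past the threshold in 19 of 19 alternatives, Pgk1 in 9.

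Of the other glycolysis genes, 14 were lower with the total of all genes, 13 with genes outside the mitochondrial genome, 1 with nuclear genes without copies, 6 by edgeR, and 1 to 9 when leaving out a library; 1 was higher without a filter, with upper quartile, quantile or no trend, 0 with a mean of at least 5 or either scaling to totals, and 1 to 3 when leaving out a library. Genes lower (643) numbered 3026 without a filter, 399 with a mean of at least 5, 6686, 5464 and 191 under the 3 scalings, 417 with quantile normalization, 374 without trend, 1296 by edgeR, and 176 to 3198 when leaving out a library (176 and 188 without remaining tissue replicates 1 and 2, 2774 and 3198 without isolated mitochondria replicates 1 and 2). As a share of all genes, the members took 1.48% in remaining tissue and 0.00447% in isolated mitochondria, and of the genes outside the mitochondrial genome 0.0816% in isolated mitochondria.

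With the replicate number as a block, 10 members, 5 other glycolysis genes and 1144 genes were lower, and 1 other glycolysis gene was higher. The labels share only the number: deviations of replicates 1 correlated at 0.141 over 6916 genes, from 2 pairs.

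Rounding and 1 read being worth 9.05 or 5.06 normalized counts limit low genes in isolated mitochondria, where members rested on 16 to 962 reads. A fit that leaves out a library takes its spread from the other group, so these counts do not show reliance on a given library. The cause of the other shifts was not tested.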
